A study of Mus musculus with 208 samples.

Results

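The genes of the voltage-gated sodium and calcium channels were followed in nuclear RNA of neurons from 4 brain regions of the mouse. They were taken by gene symbol, as the sodium channel alpha and beta subunit genes (Scn symbols that end in a or b) and the calcium channel alpha1, alpha2delta, beta and gamma subunit genes (Cacna1, Cacna2d, Cacnb and Cacng symbols), and a gene was tested in a region where its counts summed over all libraries exceeded 10. The rule found 39 symbols, with 9 sodium channel alpha subunits, 4 sodium channel beta subunits, 7 pores of the high-voltage-activated calcium channels, 3 pores of the T-type channels, 4 alpha2delta subunits, 4 calcium channel beta subunits and 8 gamma subunits. All 39 were tested in the hypothalamus, among 28859 genes. In the hippocampus 38 of them were among 22076 genes tested, in the prefrontal cortex (PFC) 37 among 21729, and in the striatum 38 among 23426. The sodium channel gene Scn2a is listed in the tables under its older symbol Scn2a1, which the rule does not take, so its values are given beside those of the members and it is not counted among them.

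Voltage-gated channels turn a change in membrane voltage into ion flow. Sodium channel alpha subunits form the pore that opens at the start of an action potential, and the beta subunits adjust its gating and its place in the membrane. Calcium channel alpha1 subunits form pores of several kinds. The P/Q-type (Cacna1a) and N-type (Cacna1b) channels admit the calcium that triggers transmitter release, the L-type channels (Cacna1c, Cacna1d) couple firing to gene transcription, and the T-type channels (Cacna1g, Cacna1h, Cacna1i) open near rest and underlie burst firing, for which thalamic relay neurons are known. The alpha2delta and beta subunits bring the pores to the membrane, and several gamma subunits are better known as TARPs, which escort AMPA-type glutamate receptors to synapses.

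The study asked what exposure to morphine around birth leaves behind in the adult brain, at rest and under an immune challenge. Dams of C57BL/6NTac mice carried minipumps that delivered saline or, at 10 mg/kg per day, morphine. Their pups were fostered by drug-naive mothers and injected subcutaneously with morphine at 10 mg/kg or with saline from postnatal day 1 to 14. As adults they received lipopolysaccharide (LPS, a bacterial endotoxin) or saline 2 h before the brains were collected, which gives 4 conditions named by exposure and then challenge, SAL-SAL and SAL-LPS after saline and MOR-SAL and MOR-LPS after morphine, with both sexes in each. Nuclei were stained for the neuronal protein NeuN and sorted, and 1 RNA-seq library was made per animal and region, 208 in all. Of the hypothalamic libraries 11 were SAL-SAL, 12 SAL-LPS, 14 MOR-SAL and 14 MOR-LPS. In the same order, the hippocampus had 13, 14, 12 and 16, the PFC 10, 10, 12 and 16, and the striatum 13, 15, 8 and 18. The labels name each library by a pair of numbers, such as 3-2, of which 71 were found. A shared pair was taken as 1 animal and the first number, of which there were 18, as its litter. The labels do not call that number a litter, and the study's methods give another number of litters. Of these 18 numbers 0 held both exposures, and the methods likewise state separate litters for each exposure, so a comparison of exposures is one between litters. The main fit treats animals as separate, and limma-voom with a correlation within litters is an alternative, whose values are given beside the calls within regions.

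The shallowest library of the hypothalamus held 7673 counts and the deepest 35077048. These bounds were 227025 and 24071488 for the hippocampus, 3056648 and 21988203 for the PFC, and 5954700 and 92945090 for the striatum. Depth was low (under 0.5 of the median of the region) in 3 hypothalamic, 2 hippocampal and 3 PFC libraries. The neuronal markers Rbfox3 (which encodes NeuN), Snap25, Syt1 and Map2 were counted in all regions. Other libraries stood apart on markers of brain regions. In the hypothalamus, 8 thalamic markers summed to over 1000 CPM (normalized counts scaled to library size) in 5 of 11 SAL-SAL and 1 of 14 MOR-SAL libraries and in 0 of the LPS-treated ones. Cortical excitatory markers, among them Slc17a7, Tbr1 and Neurod6, summed to over 100 CPM in 6 of 14 MOR-LPS and 2 of 12 SAL-LPS hypothalamic libraries, and 6 markers of striatal medium spiny neurons to over 500 CPM in 1 SAL-LPS library. By the share of the medium spiny markers in the sum of the last 2 lists, 9 hippocampal libraries (share over 50%), 17 PFC libraries (share over 90%) and 2 striatal libraries (share under 50%) stood apart. Within regions, each edgeR call that rests on such libraries is given with and without them. Between regions, values without them are given for the named members that then did not pass, and for some others. In bulk libraries, fewer cells of a type and less RNA per cell cannot be told apart.

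The members differed in level over a wide range, and their order differed between regions and, in some classes, with the length used (plot of levels by region). Levels between genes were compared only per kilobase. In the hypothalamus, normalized CPM was divided by the exon length, because the counts of that region followed exons, and in the other 3 regions by the span of the gene from start to end. Some orders per kilobase of exon in those 3 regions are given beside. The hypothalamic table and the other 3 tables did not count genes in the same way. Of 10634 protein-coding genes with a hypothalamic median over 5 CPM, 405 had a count of 0 in every hippocampal, PFC and striatal library, and the median of these was overlapped by other genes over 100% of its span, against 0.324% for the rest. The log2 ratio of the other regions to the hypothalamus rose with the share of intron, from a median of -0.98 among the genes with the smallest ratio of span to exon length to 1.13 among those with the largest. Levels of the hypothalamus and of the other regions are therefore set side by side and not tested.

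**Figure D1:**
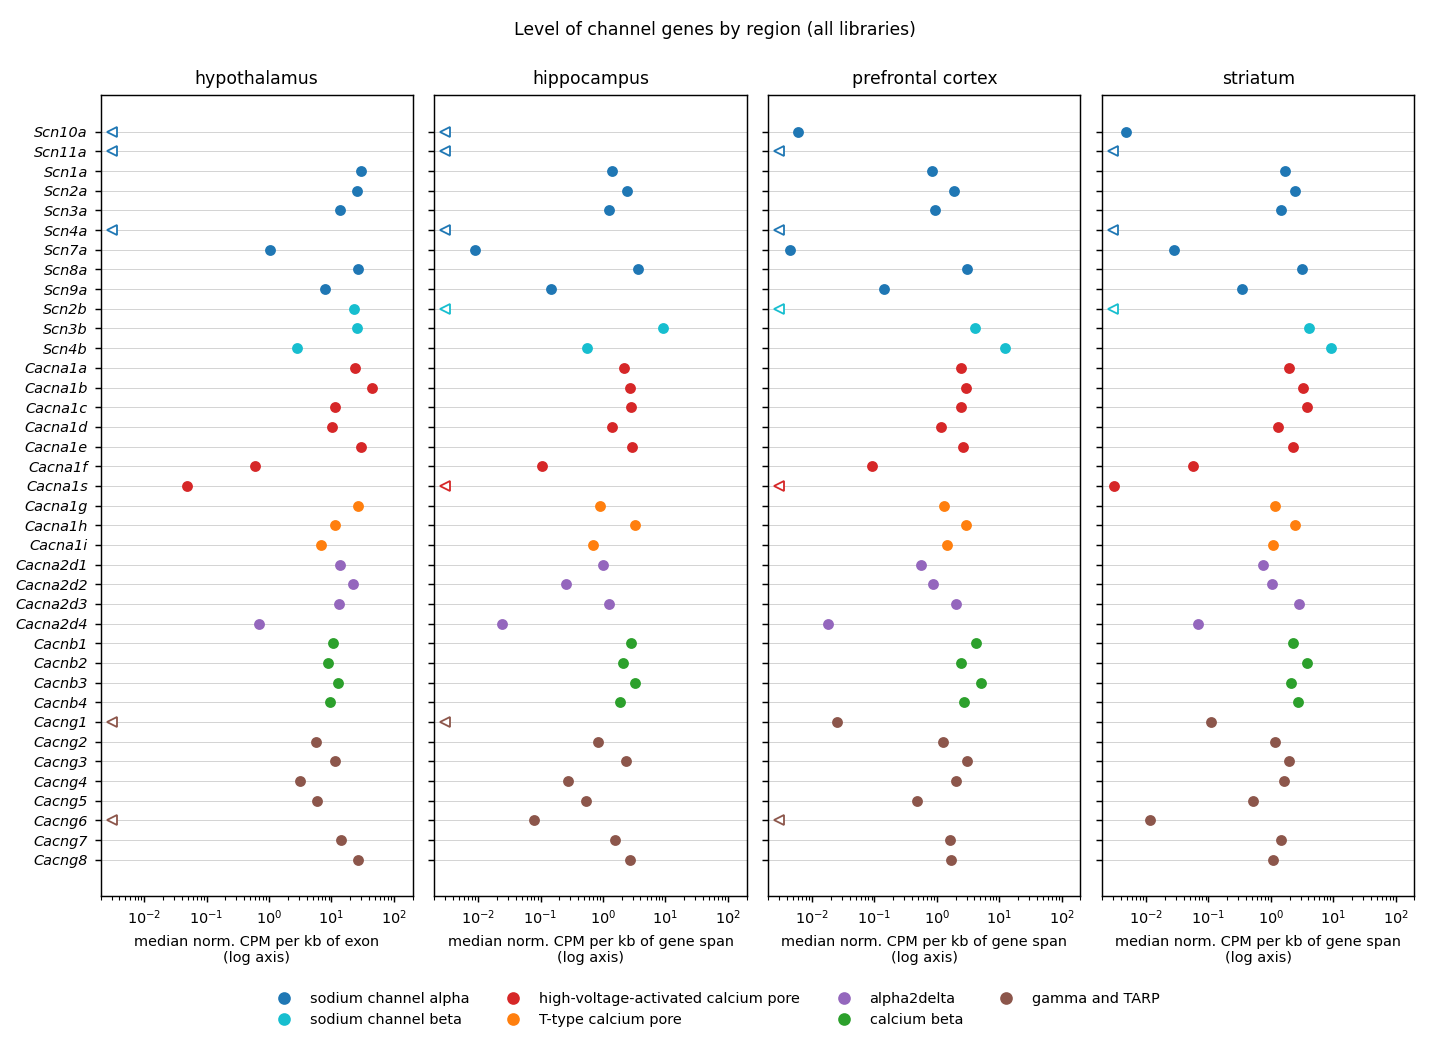
Median level of channel genes over all libraries of a region, as normalized CPM per kilobase of exon (hypothalamus) or of gene span (other regions) on a log axis, coloured by subunit class. Open triangles mark genes at or under 0.003. Scn4b, at 12.4 in the PFC and 9.05 in the striatum, stands at 0.547 in the hippocampus.

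Among the sodium channel pores, Scn8a, Scn2a and Scn1a were the highest per kilobase in every region except the PFC, where Scn3a stood above Scn1a. These genes encode Nav1.6, Nav1.2 and Nav1.1, the main pores of central neurons. In the hypothalamus the medians were 30.0 normalized CPM per kilobase of exon for Scn1a, 26.7 for Scn8a and 25.7 for Scn2a. In the 3 other regions Scn8a ranked first, at 3.05 to 3.70 normalized CPM per kilobase of span. The genes of peripheral and muscle sodium channels were near 0. Scn10a, Scn11a and Scn4a, which encode the pores of sensory neurons and of skeletal muscle, had a median of 0 CPM in the hypothalamus and the hippocampus. Scn4a, with 6 counts in the whole of the PFC, was not tested there.

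The sodium channel beta subunits showed the sharpest contrasts between regions. Scn3b led the class in the hippocampus, at 9.30 normalized CPM per kilobase of span, and Scn4b led it in the PFC and the striatum. Scn4b encodes the subunit linked to resurgent sodium current, which lets neurons fire fast. Scn2b had a median of 107 normalized CPM in the hypothalamus (range 39.6 to 197 over 51 libraries), and a count of 0 in all 55 hippocampal, 48 PFC and 54 striatal libraries. A sum of 0 allows at most 0.00511, 0.00604 and 0.00362 CPM in these regions (3 counts of the region's total, counting error only). The gene lies beside Scn4b on chromosome 9 and other genes overlap 100% of its span, as they do for the genes at 0 described above, so the count of 0 in these tables was not read as a lack of Scn2b RNA.

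Cacna1b and Cacna1e, the N-type and R-type pores, had the highest levels among the calcium pores of the hypothalamus, at 45.1 and 29.7 normalized CPM per kilobase of exon, and Cacna1a was the next of the high-voltage-activated pores at 24.1. In the striatum Cacna1c, the main L-type pore of brain, stood first at 3.85 normalized CPM per kilobase of span. In the hippocampus Cacna1e (2.95), Cacna1c (2.86) and Cacna1b (2.76) followed each other closely on that scale. Per kilobase of exon Cacna1c (82.4) stood above Cacna1e (57.7) there. Cacna1s, the pore of skeletal muscle, had a median of 0 or near it in all regions (at most 0.316 normalized CPM), and Cacna1f, the pore of photoreceptors, a median of 1.60 to 5.35 normalized CPM. Of the T-type pores, Cacna1g led in the hypothalamus, at 26.7 normalized CPM per kilobase of exon against 11.5 for Cacna1h. Cacna1h led in the other 3 regions, at 2.40 to 3.29 per kilobase of span.

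Among the accessory calcium subunits, Cacna2d2 led the alpha2delta class in the hypothalamus, at 22.3 normalized CPM per kilobase of exon against 13.6 for Cacna2d1, a target of gabapentin. Cacna2d3 led it in the hippocampus, PFC and striatum, at 1.27, 2.01 and 2.80 normalized CPM per kilobase of span. Its introns make its span 93.7 times its exon length, the sort of gene that the other 3 tables counted high. Cacnb3 was first among the beta subunits in the hypothalamus, hippocampus and PFC, at 5.04 per kilobase of span in the PFC, and Cacnb2 was first in the striatum at 3.86. Per kilobase of exon, Cacnb2 led instead in the hippocampus (61.5) and Cacnb4 in the PFC (76.7). Of the TARP class, Cacng8 led in the hypothalamus and the hippocampus and Cacng3 in the PFC and the striatum. In the hippocampus this order turned per kilobase of exon, with Cacng3 at 82.7 and Cacng8 at 29.2. Cacng8 encodes the TARP for which hippocampal synapses are known. Cacng1 and Cacng6, whose products are known from skeletal muscle, had medians of 0 in the hypothalamus and of at most 1.46 normalized CPM elsewhere.

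Several members sit side by side in the genome (mm10, GENCODE release M21). Scn3a, Scn2a, Scn1a, Scn9a and Scn7a lie on chr2:65457118-66784914, Scn2b and Scn4b on chr9:45117782-45154152, Cacng1, Cacng4 and Cacng5 on chr11:107703218-107915055, and Cacng7, Cacng8 and Cacng6 on chr7:3332955-3435667. Other genes overlap 42.8% of the span of Scn9a, 37.7% of that of Cacng8 and 18.2% of that of Cacnb2. The use of strand in counting is not given in the sources used here, so the counts of these 3 genes are uncertain.

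In the hypothalamus, the exposure at baseline came with lower counts of a TARP and of an L-type pore. Between MOR-SAL and SAL-SAL, 1.44% of all genes were called (adjusted p under 0.05, edgeR), and 2 of 39 members were, Cacng5 and Cacna1c, both lower after morphine. With a correlation within litters (limma-voom) neither passed, at -0.67 (adjusted p = 0.394) for Cacng5 and -0.53 (adjusted p = 0.331) for Cacna1c. Cacng5 encodes an atypical TARP, on chr11:107874605-107915055. It ranged from 13.4 over a median of 38.8 to 204 normalized CPM in SAL-SAL and from 7.30 over 21.3 to 38.4 in MOR-SAL. The groups overlapped over most of the MOR-SAL range, with the 5 SAL-SAL libraries rich in thalamic markers at 37.1 to 99.1 and the highest value, 204, in a library of low depth that held 47 counts of the gene. The log2 fold change (log2FC) was -1.29 (SE 0.33, adjusted p = 0.0314), and Cacng5 was also the member with the smallest p. Without the libraries rich in thalamic markers its log2FC was -1.30 with adjusted p = 0.202, and without those of low depth -0.93 with adjusted p = 0.0925.

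Cacna1c, on chr6:118587240-119196418, ranged from 218 over a median of 296 to 1402 normalized CPM in SAL-SAL and from 207 over 243 to 350 in MOR-SAL. Its groups overlapped, and the 5 SAL-SAL libraries rich in thalamic markers, which include the 2 highest values, had a median of 365 against 259 in the other 6. The log2FC was -0.86 (SE 0.23, adjusted p = 0.0427). Without the libraries rich in thalamic markers it was -0.20 (adjusted p = 0.828), and without litter 10, which holds the 2 libraries with the highest thalamic sums (6083 and 4237 CPM), -0.17 (adjusted p = 0.787). Cacna1e came next, at 574 normalized CPM (median) in SAL-SAL and 768 in MOR-SAL, with log2FC 0.56 and adjusted p = 0.0809, and did not pass. By class, no sodium channel gene was called, and the median log2FC was -0.32 over the 9 sodium channel pores and -0.34 over the 8 gamma subunits, against 0.07 over all genes. These medians were -0.12 and -0.42 without the libraries apart, and over all 39 members the median went from -0.15, with 24 negative, to -0.00238, with 20 negative.

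**Figure D2:**
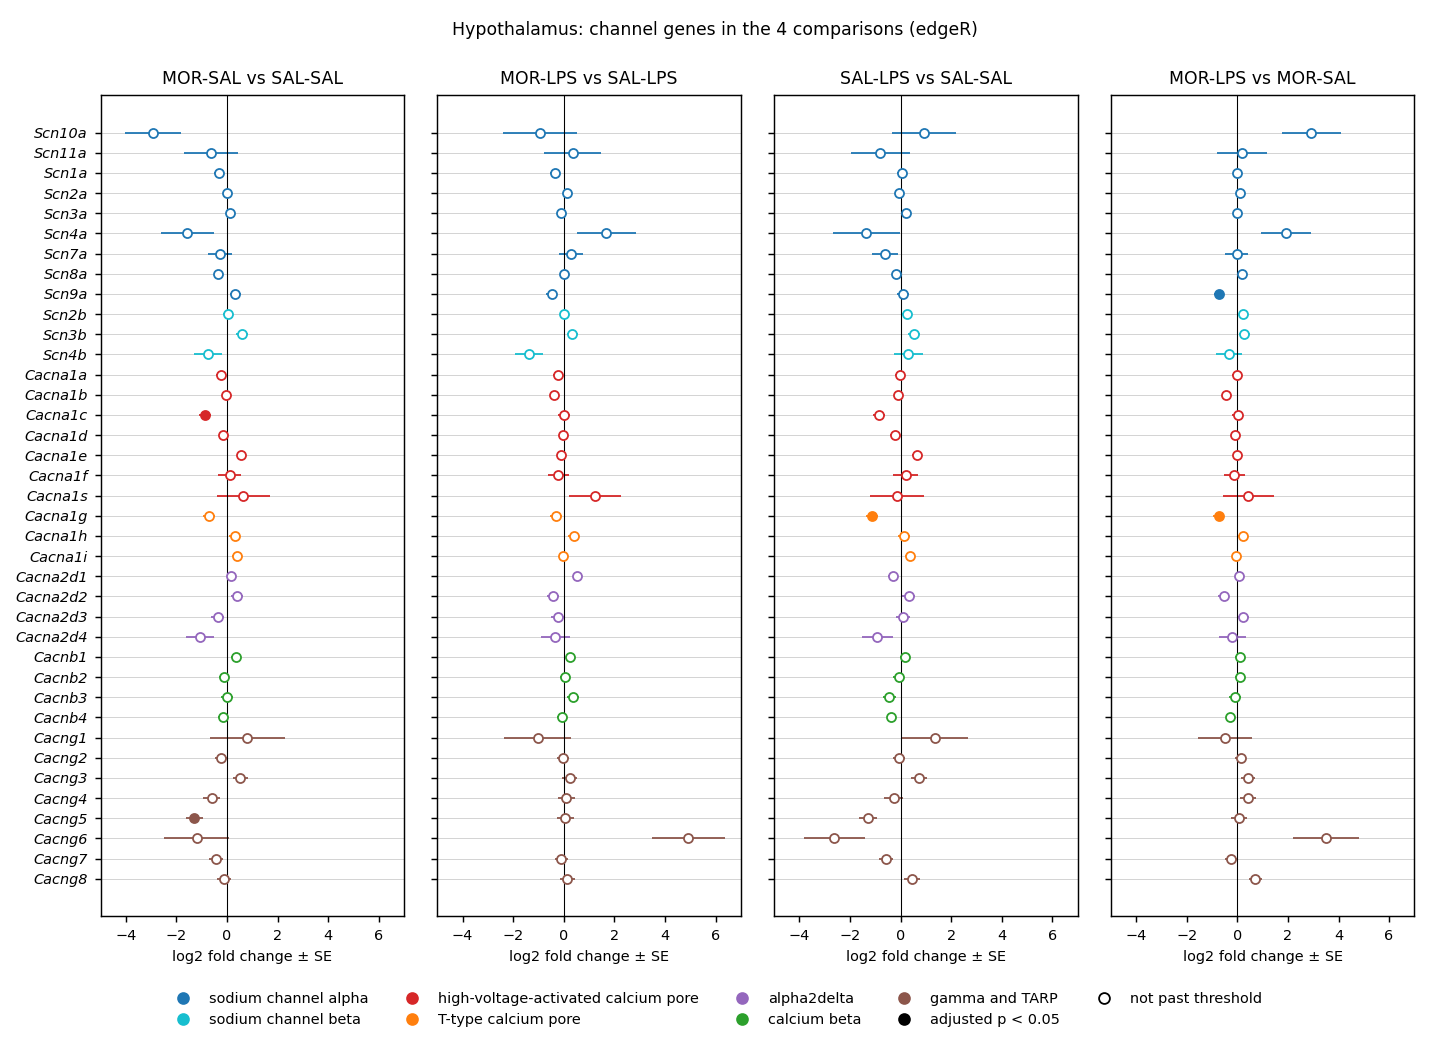
Log2 fold change with its standard error (edgeR) of channel genes in 4 hypothalamic comparisons, 1 panel each, coloured by subunit class. Filled points passed adjusted p under 0.05. They are Cacng5 and Cacna1c in the first panel, Cacna1g in the third, and Scn9a and Cacna1g in the last, all to the left of 0.

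Under LPS, edgeR called no member between the exposures in the hypothalamus. Between MOR-LPS and SAL-LPS, 1.03% of all genes were called and 0 of 39 members, with 6 members at an unadjusted p under 0.05 and 0 called by DESeq2. The 3 with the smallest p were Cacng6 (log2FC 4.92, adjusted p = 0.0677), Cacna2d1 (0.53, adjusted p = 0.117) and Scn4b (-1.38, adjusted p = 0.185). By limma-voom 1 member passed, Scn1a (-0.63, adjusted p = 0.0488), named after its value was seen, which stood at -0.36 (adjusted p = 0.329) by edgeR and -0.32 (adjusted p = 0.506) by DESeq2.

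The LPS challenge came with lower Cacna1g, the T-type pore Cav3.1, after either exposure. Between SAL-LPS and SAL-SAL, 0.246% of all genes were called, and Cacna1g (chr11:94408391-94474198) was the 1 member of 39. It ranged from 220 over a median of 430 to 1625 normalized CPM in SAL-SAL and from 0 over 229 to 566 in SAL-LPS, where the value of 0 is the library of 7673 counts. The ranges overlapped, and the 5 SAL-SAL libraries rich in thalamic markers lay between 430 and 1625, against 220 to 528 in the other 6. The log2FC was -1.12 (SE 0.25, adjusted p = 0.0340). Without the libraries rich in thalamic markers it was -0.36 (adjusted p = 0.610), with litter as a block -0.97 (adjusted p = 0.254), and by limma-voom -1.15 (adjusted p = 0.0901). Cacng5 (-1.29, adjusted p = 0.0673) and Cacna1e (0.66, adjusted p = 0.0758) came next. DESeq2, which called 0.410% of all genes, called Cacna1c, Cacna1g and Cacng5 here. By limma-voom Cacna1c (-0.45, adjusted p = 0.689) and Cacng5 (-0.78, adjusted p = 0.566) did not pass. Without the libraries apart, edgeR gave -0.27 (adjusted p = 0.700) for Cacna1c and -1.18 (adjusted p = 0.368) for Cacng5.

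After morphine, 6.27% of all genes were called between MOR-LPS and MOR-SAL and 2 of 39 members, Scn9a and Cacna1g, both lower under LPS. Scn9a, the pore Nav1.7 known from pain neurons and also present in hypothalamic neurons (chr2:66480080-66634962), ranged from 63.7 over a median of 137 to 170 normalized CPM in MOR-SAL and from 25.4 over 64.8 to 159 in MOR-LPS. The groups overlapped, and the 6 MOR-LPS libraries that stood apart on cortical markers had a median of 56.1, against 92.1 in the other 8. The log2FC of Scn9a was -0.72 (SE 0.21, adjusted p = 0.0267). Cacna1g ranged from 248 over 315 to 465 normalized CPM in MOR-SAL and from 57.2 over 195 to 356 in MOR-LPS, with a median of 152 in the 6 libraries apart and 216 in the other 8. Its log2FC was -0.74 (SE 0.22, adjusted p = 0.0323). Without the libraries apart on region markers the values were -0.38 (adjusted p = 0.403) for Scn9a and -0.40 (adjusted p = 0.242) for Cacna1g. With litter as a block they were -0.79 (adjusted p = 0.0183) and -0.77 (adjusted p = 0.00753), and by limma-voom -0.81 (adjusted p = 0.0238) and -0.75 (adjusted p = 0.0821). Cacna1b, the N-type pore, was next at -0.44 (adjusted p = 0.0562), and passed by limma-voom (-0.44, adjusted p = 0.0410).

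**Figure D3:**
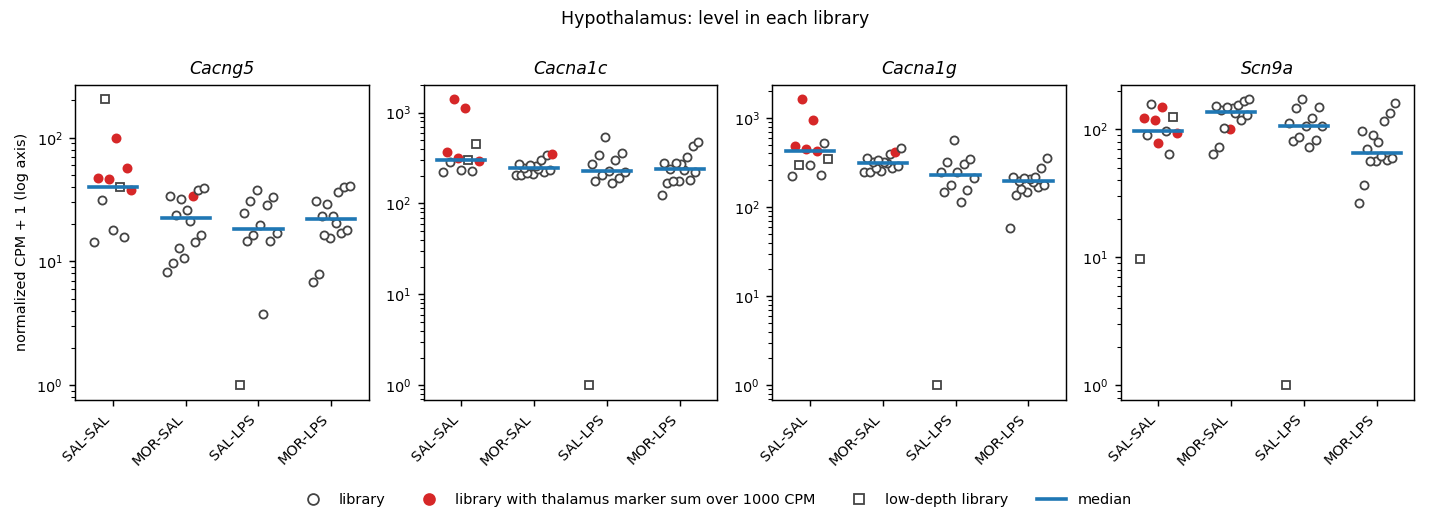
Normalized CPM + 1 (log axis) of Cacng5, Cacna1c, Cacna1g and Scn9a in each hypothalamic library by condition, with the median as a bar. Red points are the 6 libraries with over 1000 CPM of thalamic markers and squares those of low depth. The highest SAL-SAL value of Cacna1c (1402) and of Cacna1g (1625) is in red.

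The responses to LPS of the 2 exposures were compared by the interaction of the same fit, in which 3.80% of all genes were called. The interaction called 1 member, Cacng6, with a log2FC of 6.12 (SE 1.71, adjusted p = 0.0267). It rests on 93 counts in all. SAL-SAL had 12 counts in 2 libraries, MOR-SAL 7 in 2, SAL-LPS 1 in 1, and MOR-LPS 73 in 5 of 14 libraries, 4 of which stood apart on cortical markers. Without the libraries apart the value was 2.44 (adjusted p = 0.541), without litter 9 it was 3.20 (adjusted p = 0.542), and by limma-voom 1.58 (adjusted p = 0.675). Cacng5 (1.35, adjusted p = 0.0864) and Cacna1c (0.85, adjusted p = 0.142) did not pass, nor did Cacna1g (0.38, SE 0.33, adjusted p = 0.671).

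Sums of markers for other cell types and regions differed between the hypothalamic groups in some lists and changed little in others. The sum of 6 oligodendrocyte markers had medians of 358 CPM in SAL-SAL, 330 in MOR-SAL, 403 in SAL-LPS and 550 in MOR-LPS, and that of 6 astrocyte markers 225, 121, 222 and 574. All 6 markers of each list were counted. The sum of 6 microglial markers had medians of 18.0, 19.8, 20.2 and 35.1 CPM, and that of the 8 thalamic markers 577, 332, 338 and 337. Medians for 4 markers of oligodendrocyte precursors were 9.28, 6.74, 9.87 and 39.4 CPM in the same order, and those for 4 markers of the choroid plexus 30.3, 7.47, 5.12 and 11.9, with every marker counted and the ranges overlapping. The 4 neuronal markers had medians of 2032, 2034, 1860 and 2026 CPM, and 5 endothelial markers 19.3, 18.7, 21.0 and 19.8. Medians for the 6 medium spiny markers were 99.7, 172, 147 and 90.3 CPM, and for 9 hypothalamic markers 53.7, 91.1, 70.3 and 47.4. Those for 6 markers of hippocampal excitatory neurons were 299, 410, 383 and 550 CPM. The ranges of these lists overlapped too. The part of these in the fold changes of the channel genes was not tested, beyond the fits without libraries given above.

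For Scn9a, Cacna1c and Cacng5, called between conditions of the hypothalamus, the RefSeq sequence around the start site (GRCm38.p6, 250 bases before and 50 after the start) is shown to set the letters of known motifs beside the fold changes. Of the members and Scn2a, 30 genes matched, with 41 windows. The motifs searched on both strands, with overlapping matches allowed, were AGAACA (an arm of the site bound by the glucocorticoid receptor, the receptor of the stress hormone corticosterone), GGGCGG (the GC box), TGACGT (cAMP response), TATAAA (the TATA box) and CACGTG (the E box). Capitals mark AGAACA or its reverse complement in the Scn9a window (chr2:66634913-66635212, minus strand) and in a window at an inner start of Cacna1c (chr6:118757925-118758224, minus strand), where 2 matches abut. They mark GGGCGG or its reverse complement in another Cacna1c window (chr6:119108446-119108745, minus strand, 6 matches, some overlapping) and in a Cacng5 window (chr11:107915006-107915305, minus strand, 2 matches). Another Cacna1c window (chr6:119196360-119196659) and another Cacng5 window (chr11:107911313-107911612) held neither and are not shown.
Scn9a: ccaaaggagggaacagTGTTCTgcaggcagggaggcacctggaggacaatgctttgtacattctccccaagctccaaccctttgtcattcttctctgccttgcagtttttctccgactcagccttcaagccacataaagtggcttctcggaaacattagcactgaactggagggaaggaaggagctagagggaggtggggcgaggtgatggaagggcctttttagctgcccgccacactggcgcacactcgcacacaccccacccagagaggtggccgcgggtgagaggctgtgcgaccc
Cacna1c, inner start: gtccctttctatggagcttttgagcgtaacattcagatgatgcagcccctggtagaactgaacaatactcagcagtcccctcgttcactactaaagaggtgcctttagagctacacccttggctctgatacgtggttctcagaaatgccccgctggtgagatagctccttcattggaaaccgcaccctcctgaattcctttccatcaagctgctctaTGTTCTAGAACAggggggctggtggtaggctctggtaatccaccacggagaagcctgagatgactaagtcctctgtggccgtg
Cacna1c, GC-rich start: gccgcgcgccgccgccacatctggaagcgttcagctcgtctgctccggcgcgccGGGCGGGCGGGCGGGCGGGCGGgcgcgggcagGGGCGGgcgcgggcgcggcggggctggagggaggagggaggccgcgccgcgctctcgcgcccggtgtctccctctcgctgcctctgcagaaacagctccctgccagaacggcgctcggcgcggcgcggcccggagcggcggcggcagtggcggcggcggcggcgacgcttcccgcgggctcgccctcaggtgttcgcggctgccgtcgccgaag
Cacng5: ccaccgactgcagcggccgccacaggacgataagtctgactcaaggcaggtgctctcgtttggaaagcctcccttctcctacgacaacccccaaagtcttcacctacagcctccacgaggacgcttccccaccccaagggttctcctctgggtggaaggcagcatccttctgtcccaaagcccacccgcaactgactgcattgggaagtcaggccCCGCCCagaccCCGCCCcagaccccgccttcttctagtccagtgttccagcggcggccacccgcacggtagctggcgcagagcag

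AGAACA was in 7 of the 41 windows, those of Cacna1c, Cacna1d, Cacnb2, Scn2a, Scn4b, Scn8a and Scn9a, and in 19.0% of all 32851 windows. GGGCGG was in 16 of the 41 and in 35.7% of all windows, TATAAA in 2 and in 13.6%, TGACGT in 1 and in 7.51%, and CACGTG in 0 and in 7.15%. A match of letters is a description and says nothing of binding. Cacna1g has no entry in the table, and the window of Cacng6, called only in the interaction, is not shown.

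In the hippocampus, 1 call was made over the 5 comparisons. Between MOR-LPS and SAL-LPS, 2.73% of all genes were called and, of 38 members, Scn10a, which encodes the sensory neuron pore Nav1.8. Its log2FC was -3.85 (SE 1.12, adjusted p = 0.0436). The counts behind it were few. SAL-LPS held 308 counts in 6 of 14 libraries and MOR-LPS 36 in 6 of 16, and 237 of the 308 were in the 4 SAL-LPS libraries with the markers of medium spiny neurons. Without the libraries apart on region markers the log2FC was -1.66 (adjusted p = 0.539). DESeq2 gave -4.12 with adjusted p = 0.110, limma-voom -1.30 with adjusted p = 0.498, and without the libraries of low depth edgeR gave -3.79 with adjusted p = 0.0545. Cacna2d3 (-0.55, adjusted p = 0.163) did not pass. In this comparison 30 of 38 members had a negative log2FC, with a median of -0.18 against -0.000428 over all genes. From SAL-LPS to MOR-LPS the medians of the summed markers went from 366 to 484 CPM for astrocytes (5 of 6 counted, Gfap at 0), from 314 to 380 for oligodendrocytes, from 10.7 to 16.6 for microglia (5 of 6, P2ry12 at 0) and from 5310 to 5418 for neurons, with overlapping ranges. Their part in these directions was not tested.

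The other hippocampal comparisons called none of the 38 members by edgeR or DESeq2. Between SAL-LPS and SAL-SAL, with 2.55% of all genes called and 5 members at an unadjusted p under 0.05, the nearest were Scn10a (3.64, adjusted p = 0.0673), Cacng8 (-0.51, adjusted p = 0.111) and Scn1a (0.34, adjusted p = 0.160). Between MOR-LPS and MOR-SAL, with 0.467% of all genes called and 2 members at p under 0.05, Cacnb3 (-0.47, adjusted p = 0.132), Cacna1h (-0.44, adjusted p = 0.345) and Scn4a (2.03, adjusted p = 0.385) were the nearest. Between MOR-SAL and SAL-SAL 0% of all genes were called, no member had p under 0.05, and the smallest p were those of Cacna2d1 (-0.25, adjusted p = 0.605), Cacng4 (-0.90, adjusted p = 0.618) and Cacna1b (-0.24, adjusted p = 0.723). The value of Cacng4 was 0.05 without litter 5 and -0.08 without the libraries apart. The interaction called 2.35% of all genes, 1 member had p under 0.05, and Scn10a (-3.48, adjusted p = 0.311), Cacnb3 (-0.38, adjusted p = 0.535) and Cacng6 (-2.14, adjusted p = 0.575) came first.

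In the PFC none of the 37 members was called in any of the 5 comparisons, by edgeR or DESeq2. All genes called were 0% between MOR-SAL and SAL-SAL, 0.00460% between MOR-LPS and SAL-LPS, 0% between SAL-LPS and SAL-SAL, 0.0184% between MOR-LPS and MOR-SAL and 1.78% in the interaction. The counts of members at an unadjusted p under 0.05 were 2, 2, 2, 9 and 2 in the same order. The member nearest to the threshold was Cacng2, which encodes stargazin, the founding TARP. It ranged from 107 over a median of 192 to 504 normalized CPM in MOR-SAL and from 63.1 over 121 to 220 in MOR-LPS, so the groups overlapped, with log2FC -0.78 (SE 0.21, adjusted p = 0.0797). Cacna2d2 (-0.77, adjusted p = 0.130) and Cacna1g (-0.93, adjusted p = 0.139) were next in that comparison, where 28 of 37 members had a negative log2FC (median -0.24, against 0.06 over all genes). From MOR-SAL to MOR-LPS the medians of the summed markers went from 5616 to 4705 CPM for neurons, from 269 to 404 for astrocytes (Gfap at 0), from 321 to 428 for oligodendrocytes and from 12.2 to 36.8 for microglia (P2ry12 at 0), with overlapping ranges, and their part in these directions was not tested. Between SAL-LPS and SAL-SAL Cacnb2 stood at 0.94 (adjusted p = 0.166), Scn10a at 2.60 (adjusted p = 0.387) and Cacng8 at -0.48 (adjusted p = 0.475). Between MOR-SAL and SAL-SAL the T-type pore genes Cacna1h (0.62, adjusted p = 0.427) and Cacna1g (0.77, adjusted p = 0.463) came before Cacna1b (0.34, adjusted p = 0.579). Between MOR-LPS and SAL-LPS Cacng2 (-0.58, adjusted p = 0.204), Cacng5 (0.80, adjusted p = 0.364) and Scn8a (-0.35, adjusted p = 0.405) were nearest, and in the interaction Cacna1h (-0.99, adjusted p = 0.245) and Cacna2d2 (-0.85, adjusted p = 0.381).

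In the striatum edgeR called none of the 38 members in the 5 comparisons, and DESeq2 called 5 in 1 of them. All genes called by edgeR were 0% between MOR-SAL and SAL-SAL, 0% between MOR-LPS and SAL-LPS, 0.0128% between SAL-LPS and SAL-SAL, 1.39% between MOR-LPS and MOR-SAL and 0.00854% in the interaction. Members at an unadjusted p under 0.05 numbered 6, 5, 2, 11 and 10 in the same order. Between MOR-LPS and MOR-SAL, the TARP gene Cacng4 ranged from 101 over a median of 189 to 268 normalized CPM in the 8 MOR-SAL libraries and from 29.5 over 94.0 to 188 in the 18 MOR-LPS libraries. These ranges overlapped, and the log2FC was -0.96 (SE 0.28, adjusted p = 0.0587 by edgeR). Cacnb3 (-0.55, adjusted p = 0.0643) and Scn10a (2.90, adjusted p = 0.0718) followed. DESeq2, which called 3.02% of all genes in that comparison, called Cacng4 (-0.97, adjusted p = 0.0263), Cacnb3 (-0.55), Cacna1i (-0.79), Scn8a (-0.48) and Scn10a (2.98). Of these 5 limma-voom called Scn10a (2.64, adjusted p = 0.0374), and the other 4 had adjusted p from 0.0756 (Cacng4) to 0.141 (Cacna1i). The counts of Scn10a were few, 12 in 3 of 8 MOR-SAL libraries and 313 in 17 of 18 MOR-LPS libraries.

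Directions in the striatum were uneven between the comparisons. Between MOR-SAL and SAL-SAL 32 of 38 members had a positive log2FC, with a median of 0.26 against -0.07 over all genes, and between MOR-LPS and MOR-SAL 29 of 38 had a negative one, with a median of -0.26 against 0.11. Both comparisons use the 8 MOR-SAL libraries, so these signs are not independent of each other. From SAL-SAL to MOR-SAL the medians of the summed markers went from 4534 to 5340 CPM for neurons, from 258 to 190 for astrocytes, from 408 to 323 for oligodendrocytes, from 10.9 to 8.61 for microglia and from 3458 to 4960 for the 8 thalamic markers. Both striatal libraries apart are SAL-SAL, and without them 31 of 38 members had a positive log2FC (median 0.24). From MOR-SAL to MOR-LPS the medians of the summed markers went from 5340 to 4400 CPM for neurons, from 190 to 353 for astrocytes (Gfap at 0), from 323 to 513 for oligodendrocytes, from 8.61 to 20.8 for microglia (P2ry12 at 0) and from 4960 to 4147 for the thalamic markers, with overlapping ranges in both comparisons. Their part in the fold changes of Cacng4 and the other members, and in the DESeq2 calls, was not tested. Nearest between MOR-SAL and SAL-SAL were Cacng7 (0.80, adjusted p = 0.312, and 0.06 without litter 15), Cacng4 (0.74, adjusted p = 0.340) and Cacna1i (0.61, adjusted p = 0.371). Between SAL-LPS and SAL-SAL they were Cacnb2 (1.03, adjusted p = 0.162), Scn1a (0.28, adjusted p = 0.361) and Scn11a (-1.48, adjusted p = 0.443). Between MOR-LPS and SAL-LPS they included Scn1a (-0.32, adjusted p = 0.181) and Scn11a (1.72, adjusted p = 0.300), and in the interaction Cacng2 (-1.07, adjusted p = 0.135), Cacna1i (-0.96, adjusted p = 0.160) and Scn8a (-0.57, adjusted p = 0.165).

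Scn2a, Cacna1a and Cacna2d1, which were named whatever their result, passed in none of the 5 comparisons of any region. The log2FC of Scn2a stayed between -0.17 and 0.26 over the 20 comparisons. That of Cacna1a ran from -0.84 in the striatal interaction (SE 0.37, adjusted p = 0.278) to 0.58 between MOR-SAL and SAL-SAL of the striatum (SE 0.29, adjusted p = 0.443), and that of Cacna2d1 from -0.37 to 0.53.

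More members were called between regions than between conditions. The SAL-SAL libraries of the hippocampus (13), the PFC (10) and the striatum (13), whose tables were counted alike, were fitted together with sex, and 38 members were tested. Between hippocampus and PFC 13.7% of all genes were called and 13 of 38 members, between striatum and PFC 13.4% and 11 members, and between striatum and hippocampus 9.78% and 10 members. The medians of the log2FC over the 38 members were -0.20, -0.16 and 0.30, against -0.01, 0.09 and 0.09 over all genes. The median of striatum against PFC turned to 0.17 without the libraries apart. The medium spiny markers summed to 30.1 over a median of 71.8 to 1201 CPM in the hippocampus, 403 over 956 to 2577 in the PFC and 41.4 over 1086 to 3459 in the striatum. The part of these markers in the comparisons was not tested beyond the fits without the 7 libraries that stood apart (1 hippocampal, 4 PFC and 2 striatal). The PFC libraries kept in those fits still held medium spiny sums of 403 to 1282 CPM, so the fits do not take these markers out of the PFC. The comparisons share samples, so each is described on its own.

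**Figure D4:**
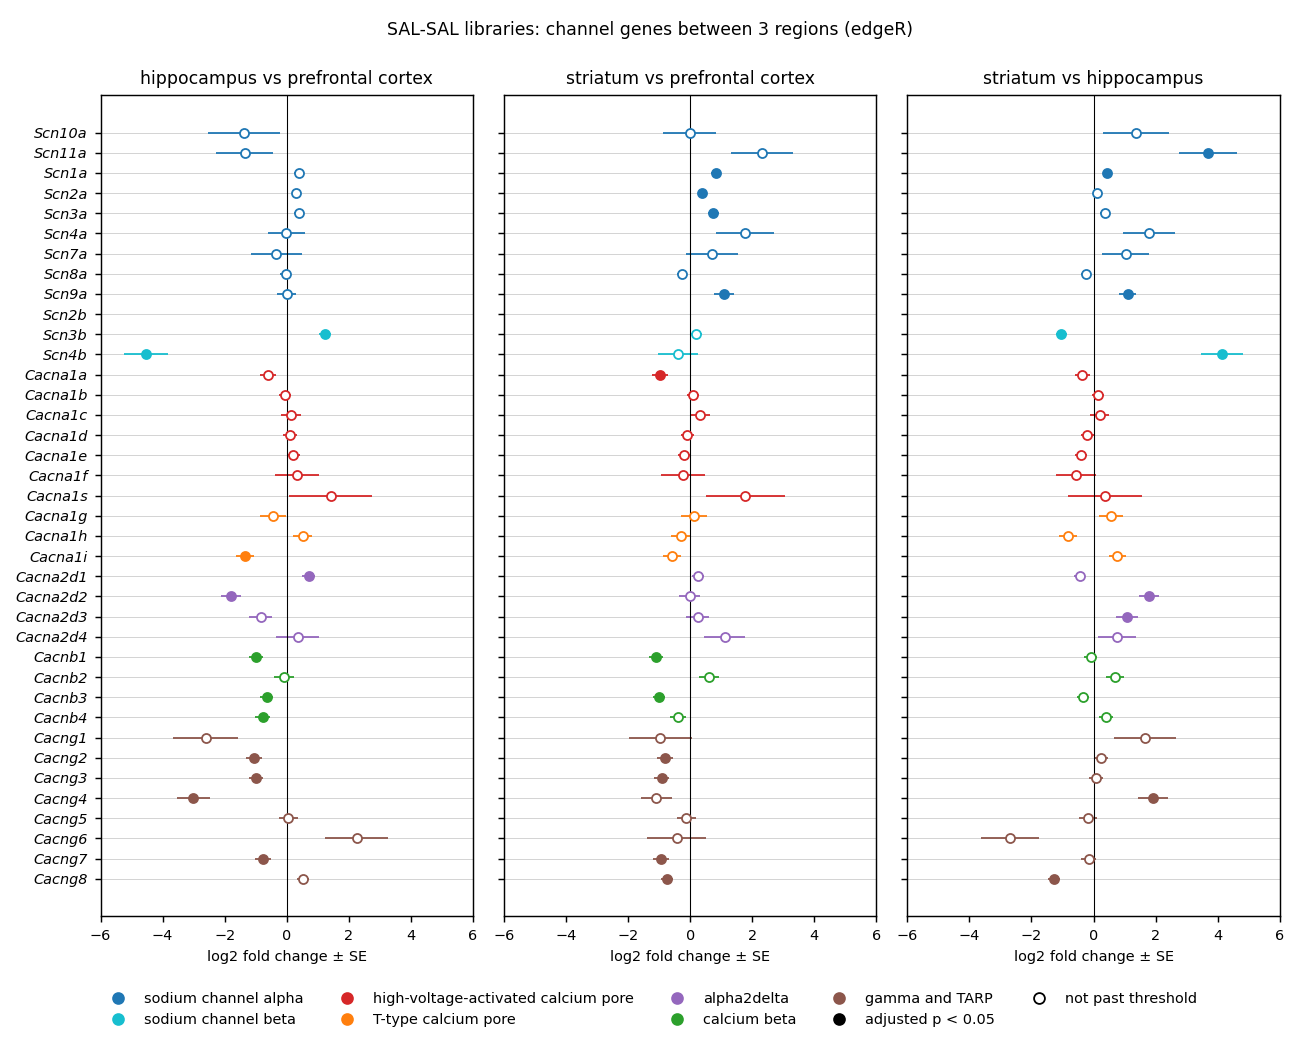
Log2 fold change with its standard error (edgeR) of channel genes between regions, from the SAL-SAL libraries, 1 panel per pair of regions, coloured by subunit class. Filled points passed adjusted p under 0.05. Scn4b lies at -4.53 between hippocampus and PFC and at 4.13 between striatum and hippocampus.

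Between hippocampus and PFC, 2 members were higher in the hippocampus and 11 lower. Scn4b had the largest difference. It ranged from 0 over a median of 7.00 to 75.3 normalized CPM in the hippocampus and from 62.2 over 202 to 758 in the PFC. The groups overlapped only through the hippocampal library 5-3, at 75.3, which also held the highest medium spiny sum of the hippocampal SAL-SAL libraries (1201 CPM). The log2FC was -4.53 (SE 0.71, adjusted p = 3.53e-05), and -3.93 (adjusted p = 5.78e-06) without the libraries apart. The PFC libraries kept there still held the medium spiny markers. Cacng4, a TARP gene, ranged from 0.443 over 21.0 to 174 normalized CPM in the hippocampus and from 32.4 over 165 to 1085 in the PFC, with log2FC -3.01 (adjusted p = 0.000127). Cacna2d2 stood at -1.80 (adjusted p = 0.000334) and the T-type pore gene Cacna1i at -1.34 (adjusted p = 0.00189).

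The members higher in the hippocampus than in the PFC were Scn3b and Cacna2d1. Scn3b ranged from 119 over a median of 186 to 286 normalized CPM in the hippocampus and from 33.7 over 92.0 to 123 in the PFC, with 12 of the 13 hippocampal libraries above every PFC one and log2FC 1.23 (SE 0.21, adjusted p = 8.04e-05). Cacna2d1 ranged from 302 over 497 to 690 and from 152 over 303 to 503, with log2FC 0.70 (adjusted p = 0.0127) and 0.49 (adjusted p = 0.0864) without the libraries apart. By class, 3 of 4 calcium beta subunits (Cacnb1, Cacnb3, Cacnb4) and 4 of 8 gamma subunits (Cacng2, Cacng3, Cacng4, Cacng7) were lower in the hippocampus, and 0 of 7 high-voltage-activated pores passed. Without the libraries apart Cacnb4 (-0.63, adjusted p = 0.147) and Cacng3 (-0.70, adjusted p = 0.0689) did not pass. With the animal as a replicate block, 6 of the 13 calls were kept, those of Scn4b, Cacng4, Cacna2d2, Cacna1i and Scn3b among them, and of the beta and gamma subunits only Cacng4 passed.

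Between striatum and PFC, 3 members were higher in the striatum, all of them sodium channel pores of the chromosome 2 cluster. Scn9a ranged from 19.5 over a median of 49.4 to 91.0 normalized CPM in the striatum and from 10.6 over 18.3 to 85.6 in the PFC, with log2FC 1.09 (SE 0.31, adjusted p = 0.0146). Scn1a, the Nav1.1 pore of fast-spiking interneurons, ranged from 185 over 284 to 379 and from 104 over 141 to 222, with log2FC 0.82 (SE 0.15, adjusted p = 0.000217). Scn3a stood at 0.75 (adjusted p = 0.00272), and Scn2a, of the same cluster, at 0.39 (adjusted p = 0.0275, and 0.0570 without the libraries apart). The ranges of all 4 genes overlapped between the regions.

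The 8 members lower in the striatum than in the PFC included the P/Q-type pore, 2 calcium beta subunits and 4 TARP genes. Cacnb1 ranged from 30.4 over a median of 51.1 to 128 normalized CPM in the striatum and from 51.9 over 98.2 to 237 in the PFC, with log2FC -1.09 (SE 0.23, adjusted p = 0.000930). Cacnb3 ranged from 20.4 over 33.6 to 65.4 and from 30.6 over 71.0 to 127 (adjusted p = 0.000792). Cacna1a ranged from 150 over 445 to 710 in the striatum and from 367 over 766 to 1482 in the PFC, with log2FC -0.97 (SE 0.27, adjusted p = 0.0111). The TARP genes were Cacng7 (-0.93, adjusted p = 0.0135), Cacng3 (-0.92, adjusted p = 0.00665), Cacng2 (-0.81, adjusted p = 0.0281) and Cacng8 (-0.75, adjusted p = 0.00868). Without the libraries apart Cacng2 (-0.70, adjusted p = 0.0678) and Cacng3 (-0.57, adjusted p = 0.148) did not pass, and with the animal as a block Cacng7 did not.

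Between striatum and hippocampus, 8 members were higher and 2 lower in the striatum. Scn4b ranged from 0.850 over a median of 177 to 957 normalized CPM in the striatum, where the 2 lowest values (0.850 and 7.38) were the libraries 3-2 and 3-4 with the lowest medium spiny sums (48.0 and 41.4 CPM). Its log2FC was 4.13 (SE 0.67, adjusted p = 6.35e-05), and 4.97 (adjusted p = 4.28e-09) without the libraries apart. Cacng4 stood at 1.91 (adjusted p = 0.00801) and Cacna2d2, at 30.6 over 136 to 224 against 10.5 over 29.7 to 104 normalized CPM, at 1.79 (adjusted p = 0.000173). Scn11a was also called, at 3.68 (adjusted p = 0.00726), on medians of 0.284 and 0 normalized CPM, for which DESeq2 gave no adjusted p. Scn9a (1.10, adjusted p = 0.00807), Cacna2d3 (1.08, adjusted p = 0.0350) and Scn1a (0.45, adjusted p = 0.0287) were also higher, of which Cacna2d3 did not pass with the animal as a block.

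The 2 members lower in the striatum than in the hippocampus were Cacng8 and Scn3b. Cacng8 ranged from 15.1 over a median of 26.0 to 53.5 normalized CPM in the striatum and from 33.6 over 70.1 to 109 in the hippocampus, with log2FC -1.27 (SE 0.19, adjusted p = 1.59e-05). Of the 13 striatal libraries, 8 lay below every hippocampal one. Scn3b ranged from 52.9 over 99.4 to 181 and from 119 over 186 to 286, with log2FC -1.03 (SE 0.19, adjusted p = 0.000192). Without the libraries apart the count of calls rose from 10 to 17, with the 10 kept and Cacna1h, Cacna1i, Cacna2d1, Cacnb2, Cacng1, Cacng6 and Scn3a added. Among them the T-type pores went in opposite directions, Cacna1i at 1.13 (adjusted p = 0.00127) and Cacna1h at -0.78 (adjusted p = 0.0441).

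**Figure D5:**
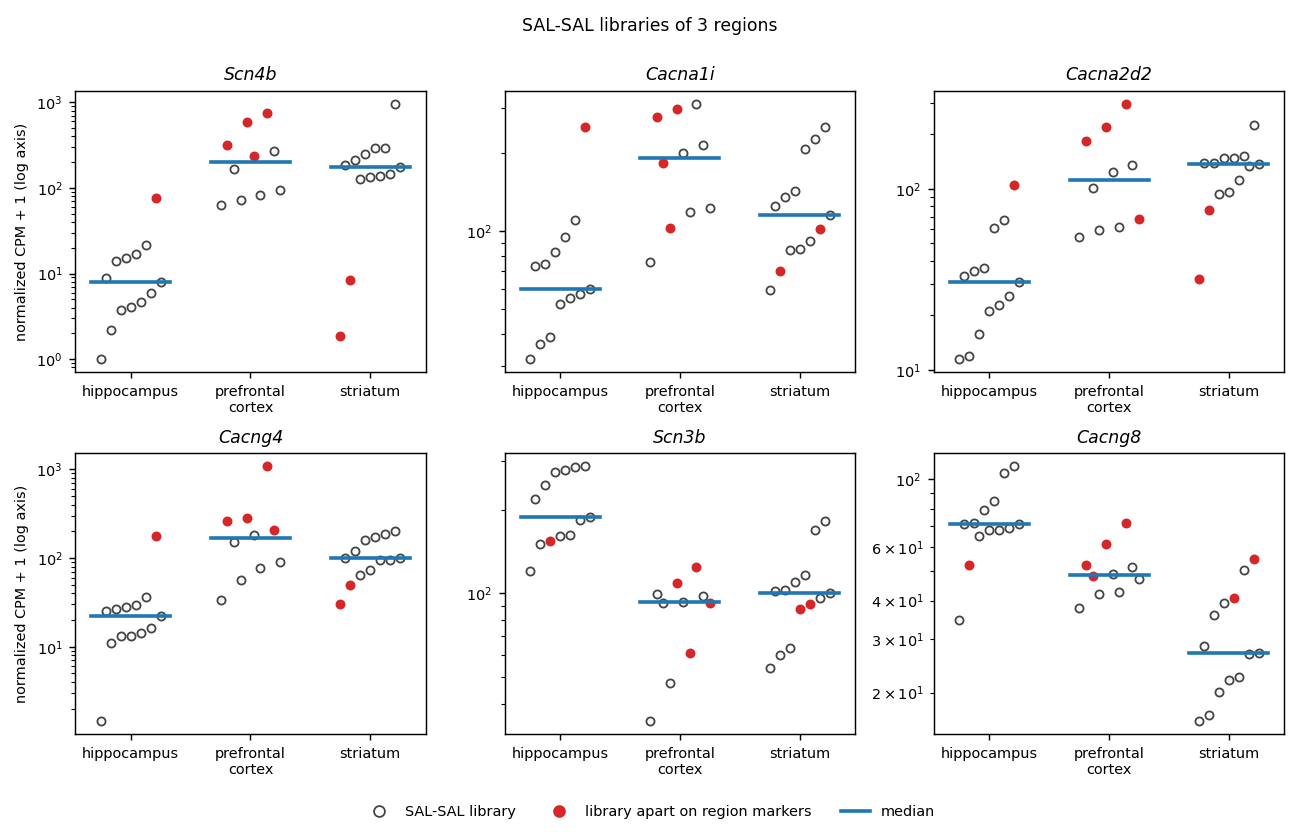
Normalized CPM + 1 (log axis) of Scn4b, Cacna1i, Cacna2d2, Cacng4, Scn3b and Cacng8 in each SAL-SAL library of 3 regions, with the median as a bar. Red points are the libraries that stood apart on region markers. The 2 red striatal libraries have the lowest Scn4b values of their region (0.850 and 7.38).

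Beside the channels themselves, 32 genes that anchor, modulate or read them were tested in the same fits. Within regions few passed. In the hypothalamus Camk2a, the calcium/calmodulin kinase of excitatory synapses, was higher in MOR-LPS than in MOR-SAL (log2FC 1.25, adjusted p = 0.00337) and than in SAL-LPS (1.12, adjusted p = 0.0414), and its interaction was 1.43 (adjusted p = 0.0248). The libraries high in cortical markers were 6 of 14 in MOR-LPS, 2 of 12 in SAL-LPS and 0 of 14 in MOR-SAL, and without the libraries apart these 3 values were 0.03 (adjusted p = 0.983), 0.23 (adjusted p = 0.792) and 0.19 (adjusted p = 0.887). By limma-voom Camk2a passed in none of the 3, at 0.84 (adjusted p = 0.116), 1.08 (adjusted p = 0.0607) and 1.37 (adjusted p = 0.197). Nalcn, the pore of the sodium leak channel, was lower in MOR-LPS than in MOR-SAL (-0.44, adjusted p = 0.0497), and stood at -0.35 (adjusted p = 0.289) without the libraries apart and -0.45 (adjusted p = 0.0522) by limma-voom. In the hippocampus Camk4 was lower in MOR-LPS than in SAL-LPS (-0.87, adjusted p = 0.0445), and stood at -0.22 (adjusted p = 0.724) without the libraries apart of that region and -0.64 (adjusted p = 0.262) by limma-voom. In the striatum the vesicle priming gene Unc13a was lower in MOR-LPS than in MOR-SAL (-0.77, adjusted p = 0.0179), and stood at -0.79 (adjusted p = 0.0181) by limma-voom and -0.88 (adjusted p = 0.195) with litter as a block. Neither of the 2 striatal libraries apart is in that comparison. The other comparisons within regions called 0 of the 32 by edgeR.

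Between regions 9 of the 32 passed in each pair, where 13.7% of all genes were called between hippocampus and PFC, 13.4% between striatum and PFC and 9.78% between striatum and hippocampus. With the animal as a block Sptbn4 and Fgf13 did not pass between hippocampus and PFC (adjusted p = 0.0587 and 0.0559). For the 32 genes between regions, values without the libraries apart are not given. Between hippocampus and PFC 3 were higher and 6 lower in the hippocampus, led by the channel scaffold Akap5 (-2.17, adjusted p = 0.000104), the axon initial segment spectrin Sptbn4 (-1.13, adjusted p = 0.00102), Camk4 (-1.33, adjusted p = 0.00151) and Fgf13, an intracellular modulator of sodium channels (1.06, adjusted p = 0.00265). Between striatum and PFC 2 were higher and 7 lower in the striatum, led by the SNARE gene Stx1a (-2.30, adjusted p = 1.95e-05), Unc13a (-1.01, adjusted p = 0.000247), Camk2a (-0.92, adjusted p = 0.000268) and Fgf13 (1.23, adjusted p = 0.000615). Between striatum and hippocampus 4 were higher and 5 lower, led by Camk2a (-1.42, adjusted p = 8.72e-08), Akap5 (1.82, adjusted p = 0.000475), Camk4 (1.38, adjusted p = 0.000595) and the active zone gene Rims2 (0.91, adjusted p = 0.00102).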

How the data were processed

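Per the labels and the study's methods, the authors trimmed reads with Trim Galore 0.6.7, aligned them to mm10 with STAR 2.7.10a and deposited raw gene counts (GENCODE annotation), with HTSeq 0.12.4 and DESeq2 1.40.2 among their tools. Strand use in counting is not given in the sources used here. The deposited CPM tables were not used. From the counts, genes with a total over 10 in a region were tested in R 4.3.3 with edgeR 4.0.16 (TMM, quasi-likelihood test, condition and sex), with Benjamini-Hochberg adjustment over all genes at 0.05. The SAL-SAL libraries of 3 regions were fitted together for the comparison of regions. DESeq2 1.42.0, limma-voom 3.58.1 with litter correlation, other filters and size factors, litter or animal as a block, and fits without libraries were alternatives, some chosen after seeing the data. The named genes were the members called in a comparison, filled up to 3 by the smallest p within regions, the 4 largest and 4 smallest fold changes called between regions, Scn2a, Cacna1a and Cacna2d1, and up to 4 called partner genes per comparison. The members and lists were chosen with earlier results of these data known. Libraries of 1 group carry different number pairs and were taken as separate animals. The p-values of the main fits measure the spread between libraries. They leave out litter and, between regions, the animals shared by the regions. The labels' number pair was taken as the animal and its first number as the litter, which the labels do not state. The correlation of the deviations of such libraries had medians of 0.007, 0.088 and -0.005 over 8, 8 and 11 animals for the 3 pairs of regions. PFC SAL-SAL libraries 1-3 and 3-0 differed least of their group (chi-square per gene 3.46, against 42.4 for the next pair) and were kept separate. The scripts were tested on simulated counts with a shared spread for all genes and 200 genes changed by a log2FC of 2. Of these, edgeR recovered 32.5%, DESeq2 61.5% and limma-voom with litters 22% between MOR-SAL and SAL-SAL of the hypothalamus. Between striatum and PFC edgeR recovered 29.5%. A member that was not called was therefore not read as unchanged. Depth limits precision, and intervals and limits for a count of 0 cover counting error only. Some members and markers that entered the fits and counts are not reported here.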

Additional observations from a re-analysis of the deposited data

Results flagged for a closer look

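In groups of 4 to 10 libraries, the highest or lowest value was compared with its nearest neighbour by Dixon's test, which flags about 1 in 20 groups by chance. There were 3 such groups (PFC SAL-SAL, PFC SAL-LPS and striatal MOR-SAL), taken gene by gene, so some flags come by chance. The PFC SAL-LPS library 3-3, which stood apart on medium spiny markers, had 4128 normalized CPM of Cacnb2 (the nearest library 2277) and 267 of Cacna2d2 (the nearest 167). The PFC SAL-SAL library 4-3, also apart on these markers, had 2.37 normalized CPM of Scn10a (the nearest 0.70). The striatal MOR-SAL library 15-0 had 1247 normalized CPM of Cacna1a (the nearest 682) and 362 of Cacng7 (the nearest 71.8). For Cacng6 in the hypothalamus the interaction of exposure and LPS passed in edgeR, at 6.12 on the log2 scale, and rests on 93 counts, 73 of them in 5 MOR-LPS libraries. It did not pass without the libraries apart (2.44, adjusted p = 0.541), without litter 9 (3.20, adjusted p = 0.542) or by limma-voom with litter correlation (1.58, adjusted p = 0.675), and DESeq2 gave it no adjusted p.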

How the results depend on the processing

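The counts of channel genes called moved by over 1.5 times as follows. In the hypothalamus, MOR-SAL against SAL-SAL (2 calls) gave 0 by limma-voom with litter correlation, 1 with the filterByExpr filter, 0 without the libraries apart, 0 without those high in thalamic markers and 1 without those of low depth. MOR-LPS against SAL-LPS (0) gave 1 by limma-voom. SAL-LPS against SAL-SAL (1) gave 3 by DESeq2 and 0 by limma-voom, with filterByExpr, with the litter block, without the libraries apart and without those high in thalamic markers. MOR-LPS against MOR-SAL (2) gave 1 with filterByExpr and 0 without the libraries apart, and the interaction (1) gave 0 by DESeq2, which gave Cacng6 no adjusted p, by limma-voom, with filterByExpr and without the libraries apart. In the hippocampus, MOR-LPS against SAL-LPS (1) gave 0 by DESeq2 and limma-voom, with filterByExpr, without the libraries apart and without those of low depth, and MOR-LPS against MOR-SAL (0) gave 1 without the libraries apart. In the striatum, MOR-LPS against MOR-SAL (0) gave 5 by DESeq2 and 1 by limma-voom, with filterByExpr and without the libraries apart, which are in neither group. With the animal as a replicate block, hippocampus against PFC gave 6 in place of 13, and striatum against hippocampus gave 17 in place of 10 without the libraries apart. Leaving out 1 litter (the first number of the label) at a time, the counts ran from 0 to 4 for MOR-SAL against SAL-SAL, 0 to 3 for MOR-LPS against MOR-SAL, 0 to 1 for SAL-LPS against SAL-SAL and 0 to 1 for the interaction in the hypothalamus, from 0 to 2 for SAL-LPS against SAL-SAL and 0 to 1 for MOR-LPS against SAL-LPS in the hippocampus, and from 0 to 1 for MOR-LPS against MOR-SAL in the striatum. The other comparisons within regions gave 0 throughout. The fits without libraries apart, without those high in thalamic markers and without PFC SAL-SAL 3-0 were chosen after seeing the data. The cause of these moves was not tested. Of 142 fold changes of named genes, those of the 31 called kept their sign under the alternatives run, and 33 of the 111 not called changed sign in 1 or more, such as Cacna1a between MOR-SAL and SAL-SAL of the hypothalamus (-0.40 to 0.25 with 1 litter left out).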
